A study of Aspergillus nidulans FGSC A4 with 21 samples.

Results

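The mitochondrial genes described here are 69 of the 2403 genes that the deposited tables list for hyphae of Aspergillus nidulans exposed to benzo[a]pyrene (BaP), a polycyclic aromatic hydrocarbon formed by incomplete combustion. They were taken by their written descriptions in the tables: the description had to name mitochondria, and genes also described by farnesol, transport across membranes, transcription factors, ribosomes or the nucleolus were left out, together with a few named genes such as citA and cycA. Of 97 listed genes whose description names mitochondria, 28 were left out in this way. No measured value was used in the choice, but each gene had first to be in a table, and a table lists a gene only where the authors' own test on these libraries had picked it as different between BaP and control. For 61 of the 69 the description comes from orthologs in other species, 26 are described by location alone, and 15 are placed in another compartment as well.

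The strain was FGSC A4, the wild-type reference strain of the species. Spores were grown for 18 h at 37°C in minimal medium with 1% glucose, and the washed hyphae were moved to medium with 0.1% glucose that held either 200 µM BaP dissolved in dimethyl sulfoxide (DMSO) or the same volume of DMSO alone. Hyphae were collected at 6, 24, and 48 h, with 3 poly(A)-selected, strand-specific libraries per treatment and time point. Since BaP and control cells shared the low-glucose medium and DMSO, each comparison measured what BaP added to these. Nothing in the sample descriptions says whether the 3 libraries of a group were separate cultures, so the tests below measure the spread between these libraries, which may be technical.

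Mitochondria carry the respiratory chain, which passes electrons from NADH and other donors through complexes in the inner membrane to oxygen. Nearly all of their proteins are encoded in the nucleus, made in the cytosol, and brought in through translocases of the outer and inner membranes, after which a peptidase in the matrix removes the targeting sequence. In filamentous fungi the organelle also houses fatty acid beta-oxidation (shared with peroxisomes), the glycine cleavage system, lipoate attachment, iron-sulfur cluster assembly, and the last step of heme synthesis.

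Levels are given as RPKM, read counts scaled to the length of the transcript and the size of the library, with the 3 BaP libraries and then the 3 control libraries of a time point in the order of their library numbers (B16 to B18 and D19 to D21 at 6 h, B22 to B24 and D25 to D27 at 24 h, B28 to B30 and D31 to D33 at 48 h). Fold changes are differences in mean log2(RPKM + 1), BaP minus control, with the standard error of the limma fit, and understate the change of genes with low values. Where levels are followed by a value with ± in parentheses, that value is the log2 fold change with its standard error. A gene was said to rise or fall where this value was over 1 or under -1 with a limma p-value, adjusted by the Benjamini-Hochberg method over all genes of the table, under 0.05. Since the tables were made per time point, levels at different times are set side by side without a test, and differences between time points in the response to BaP were not tested.

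Most of the mitochondrial genes listed at a time point were higher in BaP-treated cells, and at 6 h fewer than at the later times were listed. At 6 h, 28 of the 69 were listed, of which 24 rose, 1 fell, and 3 did not pass; of all 703 genes in that table, 74% passed, 63.6% upward and 10.4% downward. At 24 h, 55 were listed, of which 41 rose, 5 fell, and 9 did not pass, beside 74.1% of 1503 genes that passed, 41.5% upward and 32.6% downward. Among the 45 listed at 48 h, 31 rose, 10 fell, and 4 did not pass, beside 83.9% of 1529 genes that passed, 40.9% upward and 43% downward. A positive fold change was found for 26 of 28, 45 of 55, and 35 of 45 members, beside 76.1%, 49.8%, and 49.4% of all listed genes. The median log2 fold change of the mitochondrial genes was 1.29 at 6 h, 1.17 at 24 h, and 1.14 at 48 h, whereas the median over all listed genes was 1.13, -0.19, and -0.56. The adjusted p of the members that rose ran from 1.25e-08 to 1.51e-05 at 6 h, from 0.0155 to 0.0461 at 24 h, and from 0.00162 to 0.00901 at 48 h. At 6 h the set thus sat close to the other listed genes, and at 24 and 48 h it lay on the side of the genes that rose. When each 6-h library was centred on its median over the listed genes, which moved the median of all listed genes from 1.13 to 0.04, the median of the members was 0.20 and 3 of the 28 passed, AN7524 upward and AN0394 and AN5175 downward. Since RNA came from whole cultures, more cells or hyphal segments of a kind and more transcript per cell cannot be told apart.

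**Figure D1:**
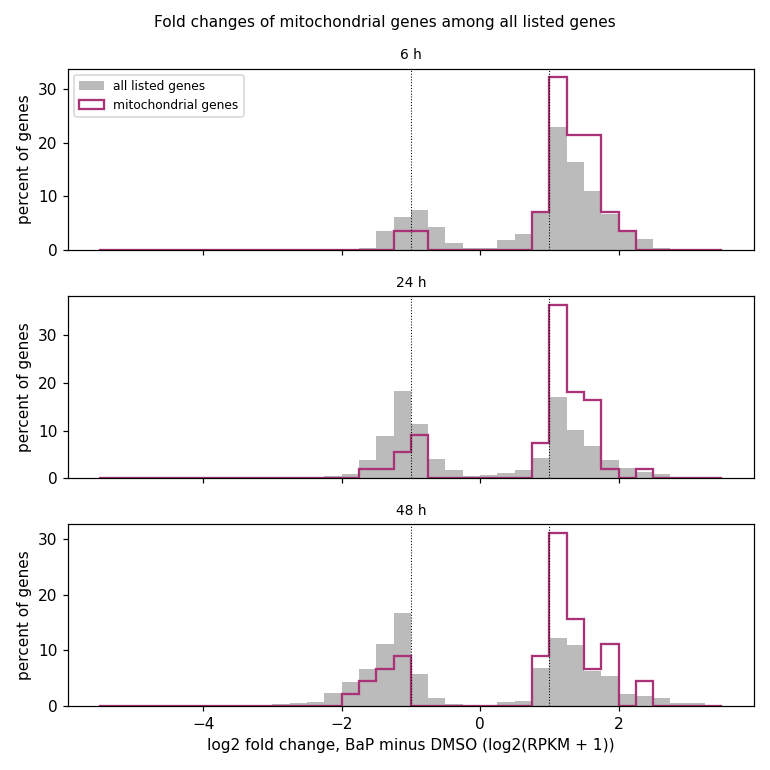
Log2 fold change of BaP minus control on the log2(RPKM + 1) scale (x axis) against the percentage of genes (y axis) at 6, 24, and 48 h, for all listed genes (grey) and the mitochondrial genes (line); dotted lines mark 1 and -1. All listed genes fall into a higher and a lower group with medians of 1.13, -0.19, and -0.56, while most mitochondrial genes sit in the higher group, with medians of 1.29, 1.17, and 1.14.

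Over the 3 time points 52 mitochondrial genes rose at least once, 11 fell at least once, 6 never passed, and 0 did both. Of the 52, 36 rose at 2 or 3 time points, and of the 11, 5 fell at 2 time points. The matching shares over all listed genes were not worked out. Since each gene had been selected as different, nothing particular to the members is read from these counts. Every gene listed at more than 1 time point kept its sign: 22 of 22 listed at 6 and 24 h, 36 of 36 listed at 24 and 48 h, and 10 of 10 listed at 6 and 48 h. The share of all listed genes that kept their sign was not worked out, so nothing particular to the members is read from this. The BaP and control libraries of a time point did not overlap for any of the 28, 55, and 45 listed members, and the same was true of 99.3%, 93.7%, and 99.7% of all listed genes.

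**Figure D2:**
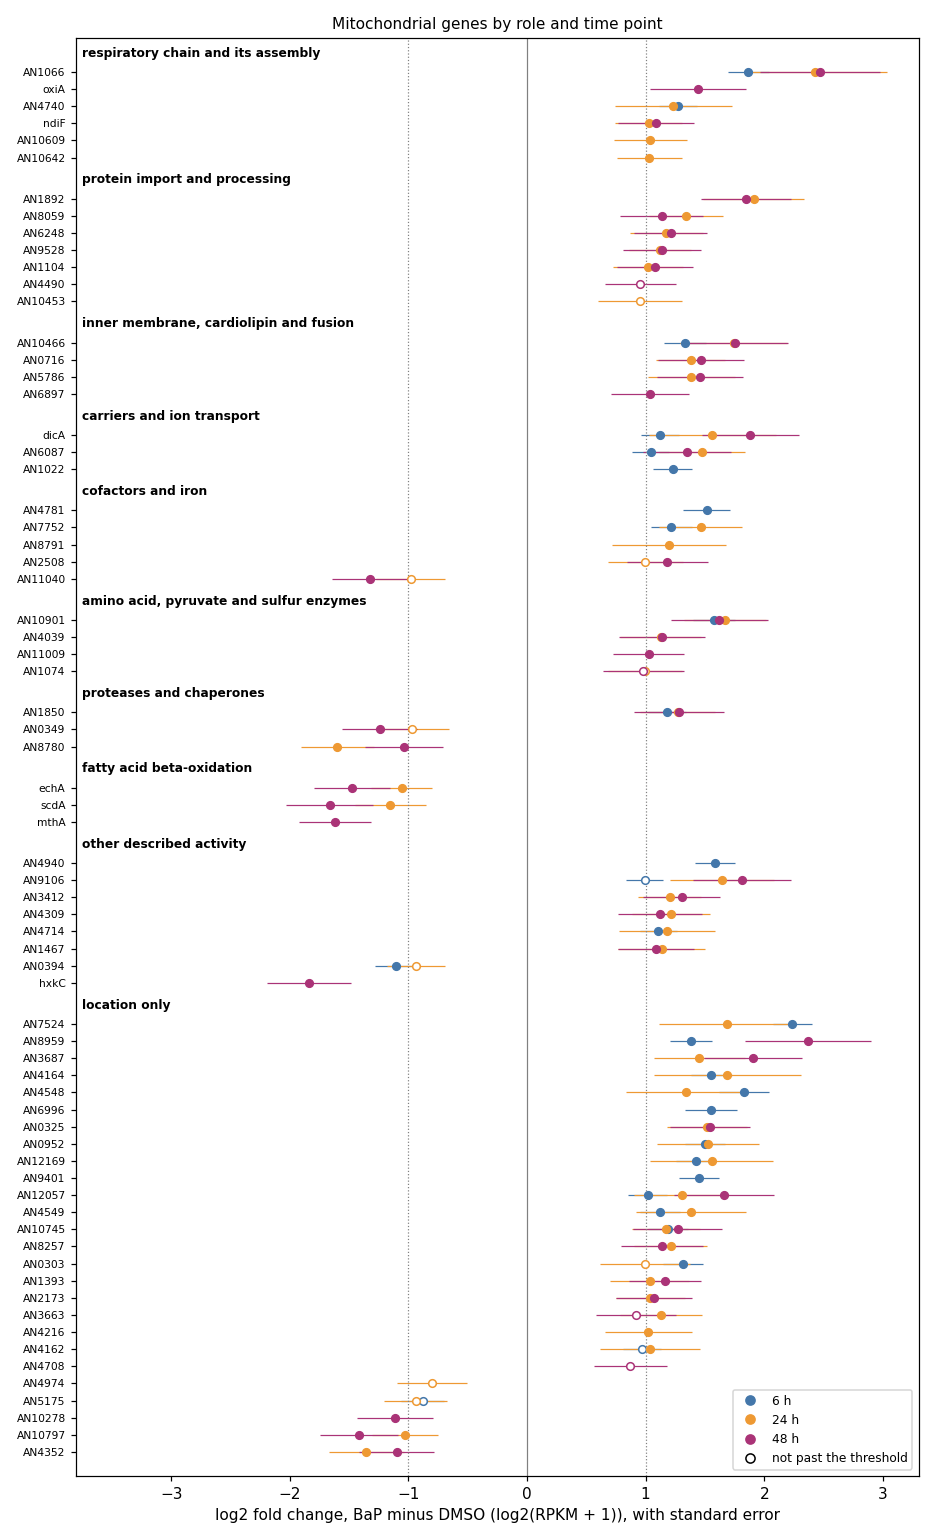
Log2 fold change of BaP minus control on the log2(RPKM + 1) scale with its standard error (x axis) for each mitochondrial gene, grouped by described role, at 6 h (blue), 24 h (orange), and 48 h (purple); filled points passed the threshold and open points did not. Respiratory chain, import, inner membrane, and carrier genes lie to the right of 0, from 0.95 to 2.47, and the 3 beta-oxidation genes to the left, from -1.06 to -1.66.

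The libraries of a group were not equally alike, and this touches every result at 24 and 48 h. Library sizes worked back from the RPKM steps ran from 5974478 to 13709639 reads, and the BaP libraries of 6 and 48 h were all shallower than the controls of those times. The control library D26 was the highest of its group for 42 of the 45 members with a positive fold change at 24 h, by a median of 0.91 log2 units over the mean of the other two, and D27 was the lowest for 42, while B23 was the lowest BaP library for 40. D33 was the highest control for 32 of 35 such members at 48 h, by 0.96. The same libraries stood apart over all genes with a positive fold change, D26 being highest for 599 of 748 and D33 for 633 of 756. Their part in the results was not tested. The 41 rises at 24 h became 43 without D26 and 21 without D27. With limma 0 members passed, in either direction, without B22, without B24, or without D25. In those fits 39, 41, and 41 members kept an unadjusted p under 0.05, as did 1019, 1021, and 1074 of all 1503 listed genes, which had been selected as different. The smallest adjusted p of a member in those 3 fits lay between 0.0576 and 0.0626. The 31 rises at 48 h became 33 without D33 and 17 without D31.

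In the set, respiratory chain genes and genes for the assembly of its complexes rose wherever they were listed. These were 2 genes at 6 h, 5 genes at 24 h, and 3 genes at 48 h, beside 63.6%, 41.5%, and 40.9% of all listed genes that rose. AN6297, left out by the rule and described by aerobic respiration and protein complex assembly, fell at 48 h (-1.48 ± 0.31). Here and in the role groups below the genes are few, and nothing particular to a role is read from the counts. The largest rise of the whole set was that of AN1066, whose orthologs act in the assembly of complex IV (cytochrome c oxidase, which hands electrons to oxygen) and sit in respiratory supercomplexes. Its level at 6 h was 52.2, 66.8, and 54.5 RPKM with BaP and 12.6, 17.7, and 15.3 RPKM in the controls, a log2 fold change of 1.86 ± 0.17 (adjusted p = 5.71e-08). At 24 h AN1066 stood at 334, 184, and 276 RPKM with BaP and 50.3, 110.1, and 18.3 RPKM in the controls, a difference of 2.43 ± 0.60 (adjusted p = 0.0155). At 48 h AN1066 read 321, 318, and 276 RPKM with BaP and 27.7, 36.6, and 155 RPKM in the controls, a difference of 2.47 ± 0.50 (adjusted p = 0.00162). The groups did not overlap at any time, but D26 and D33 stood well above the other controls, and the log2 fold change was 3.04 without D26, 1.77 without D27, and 3.22 without D33.

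AN4740, whose orthologs assemble complex I (the proton-pumping NADH dehydrogenase), was at 66.2, 71.7, and 70.6 RPKM with BaP and 25.1, 32.8, and 27.1 RPKM in the controls at 6 h (1.27 ± 0.16). At 24 h AN4740 read 124, 121, and 116 RPKM with BaP and 52.5, 104, and 23.4 RPKM in the controls (1.23 ± 0.49). Its 3 BaP libraries at 24 h were close together, and D26 came near them. The gene ndiF, a putative mitochondrial NADH dehydrogenase that passes electrons to ubiquinone, was at 44.9, 27.1, and 44.4 RPKM with BaP and 17.8, 20.8, and 15.9 RPKM in the controls at 24 h (1.03 ± 0.28). At 48 h ndiF was at 32.9, 35.5, and 44.5 RPKM with BaP and 14.9, 13.8, and 23.8 RPKM in the controls (1.09 ± 0.32). At 24 h B23 was nearest to the controls and at 48 h D33 was nearest to the BaP libraries. AN10609, described by complex III assembly, had means of 45.2 ± 9.42 RPKM with BaP and 21.9 ± 6.78 RPKM in the controls (SD, n = 3) at 24 h (1.04 ± 0.31). AN10642, whose orthologs bind ubiquinone, the lipid electron carrier of the inner membrane, had means of 25.4 ± 6.76 RPKM with BaP and 11.6 ± 0.739 RPKM in the controls (SD, n = 3) at that time (1.03 ± 0.28).

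The gene oxiA codes for subunit I of cytochrome c oxidase and was the 1 member encoded in the mitochondrial genome itself. At 48 h, the only time it was listed, oxiA was at 37.8, 25.1, and 25.8 RPKM with BaP and 14.4, 14.6, and 4.64 RPKM in the controls, a log2 fold change of 1.44 ± 0.40 (adjusted p = 0.00523). D33, the highest control for most nuclear members that rose, was the lowest for oxiA, and the log2 fold change was 0.96 without it. The libraries were poly(A)-selected, and how this acted on a mitochondrially encoded transcript was not tested.

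Genes for protein import and processing were listed at 24 and 48 h and not at 6 h. At each of these times 5 of 6 rose, beside 41.5% and 40.9% of all listed genes, and the remaining gene was higher without passing. AN1892, described as a channel of the presequence translocase of the inner membrane, was at 229, 110.3, and 194 RPKM with BaP and 46.6, 70.5, and 26.6 RPKM in the controls at 24 h (1.91 ± 0.43). At 48 h AN1892 measured 201, 211, and 198 RPKM with BaP and 37.2, 44.6, and 105 RPKM in the controls (1.84 ± 0.38, adjusted p = 0.00168). It was the second largest rise of the set at 24 h, and its 48-h BaP libraries were close together, whereas D33 stood far above the other controls. AN6248 (grpE in RefSeq), the nucleotide exchange factor of the Hsp70 motor that pulls proteins into the matrix, was at 131, 64.7, and 105 RPKM with BaP and 38.5, 46.7, and 41.2 RPKM in the controls at 24 h (1.17 ± 0.31). At 48 h AN6248 stood at 94.7, 106, and 118 RPKM with BaP and 41.98, 38.005, and 57.9 RPKM in the controls (1.21 ± 0.31). Its controls at 24 h were nearly equal, D26 included, and the spread was among the BaP libraries, with B23 lowest.

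AN8059, a channel of the complex that inserts carrier proteins into the inner membrane, was at 69.98, 37.3, and 65.2 RPKM with BaP and 21.7, 24.6, and 18.1 RPKM in the controls at 24 h (1.34 ± 0.31). At 48 h AN8059 read 47.6, 65.8, and 81.8 RPKM with BaP and 19.9, 27.4, and 41.8 RPKM in the controls (1.13 ± 0.35). Here too B23 was the lowest BaP library of 24 h and D33 the highest control of 48 h. AN1104, described by the processing peptidase that removes targeting sequences, was at 35.8, 26.4, and 36.9 RPKM with BaP and 16.3, 20.5, and 11.3 RPKM in the controls at 24 h (1.02 ± 0.29). At 48 h AN1104 was at 38.4, 47.5, and 39.4 RPKM with BaP and 15.4, 16.7, and 27.2 RPKM in the controls (1.08 ± 0.32). AN9528 (mmm1), whose orthologs tether mitochondria to the endoplasmic reticulum and help assemble the outer membrane translocase, was at 35.9, 28.7, and 32.3 RPKM with BaP and 13.6, 18.3, and 11.5 RPKM in the controls at 24 h (1.12 ± 0.26). At 48 h AN9528 measured 36.9, 37.6, and 36.6 RPKM with BaP and 11.96, 14.4, and 24.97 RPKM in the controls (1.14 ± 0.33). For each of these 3 genes the differences at 24 and 48 h lay within 1 standard error of each other. Of the members that did not pass, AN10453, of the inner membrane insertion complex, had a log2 difference of 0.95 ± 0.36 at 24 h, with B23 close to the controls, and AN4490, a described channel that binds targeting sequences, had 0.96 ± 0.30 at 48 h.

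**Figure D3:**
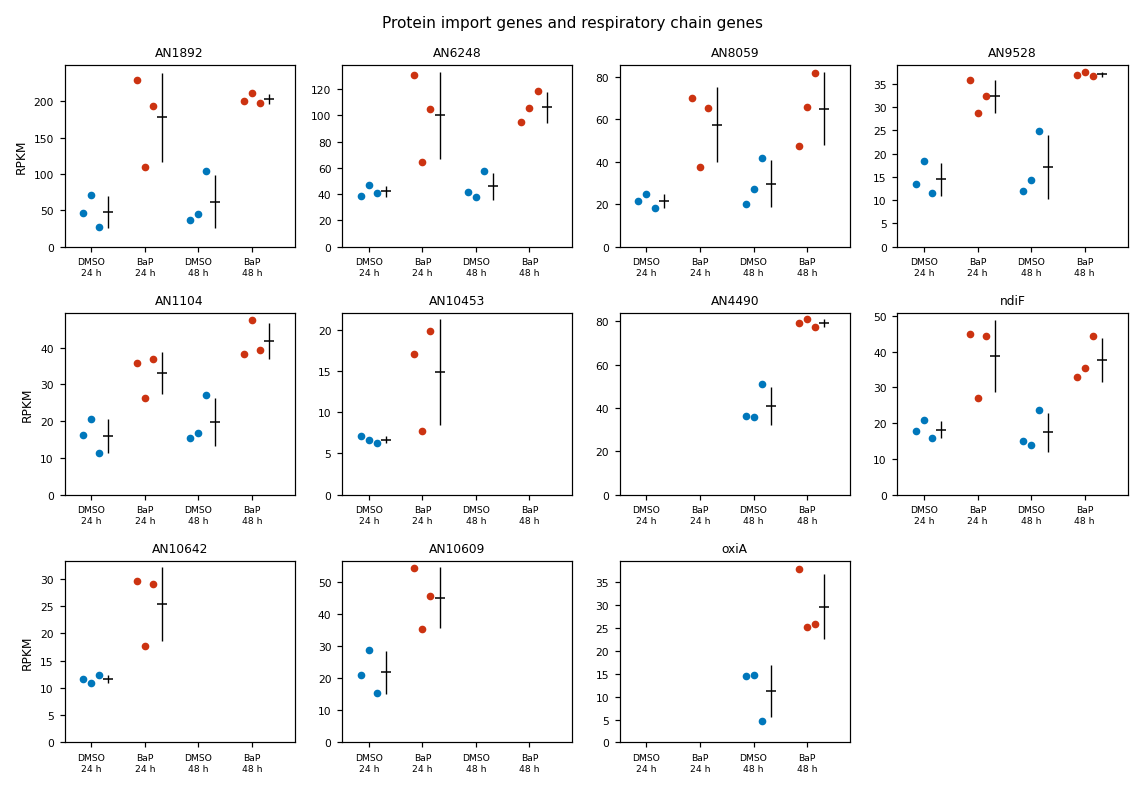
RPKM in each library (y axis) of 7 protein import genes and 4 respiratory chain genes at 24 and 48 h (x axis), for controls (blue) and BaP-treated cells (red), with the mean and SD of each group in black; a time point is empty where the gene was not listed. In every panel all 3 BaP libraries lie above all 3 controls, as for AN1892 at 48 h (198 to 211 against 37.2 to 105).

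The listed members for inner membrane organization, cardiolipin, and fusion all rose, which were 1 gene at 6 h, 3 genes at 24 h, and 4 genes at 48 h. Over all listed genes, 63.6%, 41.5%, and 40.9% rose at these times. AN10466, described by inner membrane organization, was listed at every time, with 40.6, 52.8, and 44.5 RPKM with BaP and 16.5, 21.9, and 14.9 RPKM in the controls at 6 h (1.33 ± 0.18). At 24 h AN10466 stood at 145, 109.8, and 132 RPKM with BaP and 37.1, 72.4, and 19.6 RPKM in the controls (1.74 ± 0.45). At 48 h AN10466 stood at 149, 159, and 136 RPKM with BaP and 24.9, 31.3, and 101 RPKM in the controls (1.76 ± 0.44; 2.36 without D33). The groups stayed apart at each time, and the BaP means of 24 and 48 h were above that of 6 h. AN0716, the cytidylyl transferase that starts cardiolipin synthesis (cardiolipin being the signature lipid of the inner membrane), was at 45.2, 31.4, and 38.7 RPKM with BaP and 14.3, 18.6, and 10.3 RPKM in the controls at 24 h (1.38 ± 0.29). At 48 h AN0716 read 43.02, 48.5, and 39.7 RPKM with BaP and 11.1, 11.3, and 27.1 RPKM in the controls (1.47 ± 0.36). AN5786, described by regulation of cardiolipin metabolism and mitochondrial inheritance, was at 80.1, 42.7, and 70.4 RPKM with BaP and 22.9, 34.4, and 15.9 RPKM in the controls at 24 h (1.38 ± 0.37). At 48 h AN5786 was at 72.6, 76.5, and 75.4 RPKM with BaP and 19.1, 20.9, and 46.7 RPKM in the controls (1.46 ± 0.36). Both cardiolipin genes were lower in B23 than in the other BaP libraries of 24 h and highest, among the 48-h controls, in D33. AN6897, a GTPase of mitochondrial fusion, had means of 98.99 ± 9.08 RPKM with BaP and 49.6 ± 18.4 RPKM in the controls (SD, n = 3) at 48 h (1.04 ± 0.33).

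The 3 carrier and ion transport genes rose wherever listed, beside 63.6%, 41.5%, and 40.9% of all listed genes that rose at 6, 24, and 48 h. The gene dicA, a putative antiporter that exchanges dicarboxylates such as malate for phosphate, was at 34.4, 40.4, and 34.3 RPKM with BaP and 14.6, 18.03, and 15.9 RPKM in the controls at 6 h (1.12 ± 0.16). At 24 h dicA read 138, 77.05, and 99.1 RPKM with BaP and 30.6, 76.5, and 16.2 RPKM in the controls (1.56 ± 0.54). At 48 h dicA measured 60.6, 80.01, and 70.2 RPKM with BaP and 11.001, 14.02, and 38.4 RPKM in the controls (1.88 ± 0.41, adjusted p = 0.00209). At 24 h D26 came within 1 RPKM of the lowest BaP library, and at 48 h the groups were farther apart. AN6087, described by manganese and pyridoxal phosphate transport, was at 17.004, 17.7, and 14.6 RPKM with BaP and 7.47, 7.60, and 7.25 RPKM in the controls at 6 h (1.04 ± 0.16, which turned to -0.053 when the libraries were centred on the median of the listed genes). At 24 h AN6087 was at 52.2, 32.9, and 45.7 RPKM with BaP and 13.9, 23.5, and 9.68 RPKM in the controls (1.48 ± 0.36). At 48 h AN6087 stood at 44.5, 36.8, and 38.96 RPKM with BaP and 11.2, 10.9, and 27.7 RPKM in the controls (1.35 ± 0.37). Its 3 controls were nearly equal at 6 h and spread at 24 and 48 h. AN1022, described by potassium and proton transport in the inner membrane, was listed at 6 h alone, with means of 101 ± 2.54 RPKM with BaP and 42.9 ± 6.54 RPKM in the controls (SD, n = 3) (1.23 ± 0.16).

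**Figure D4:**
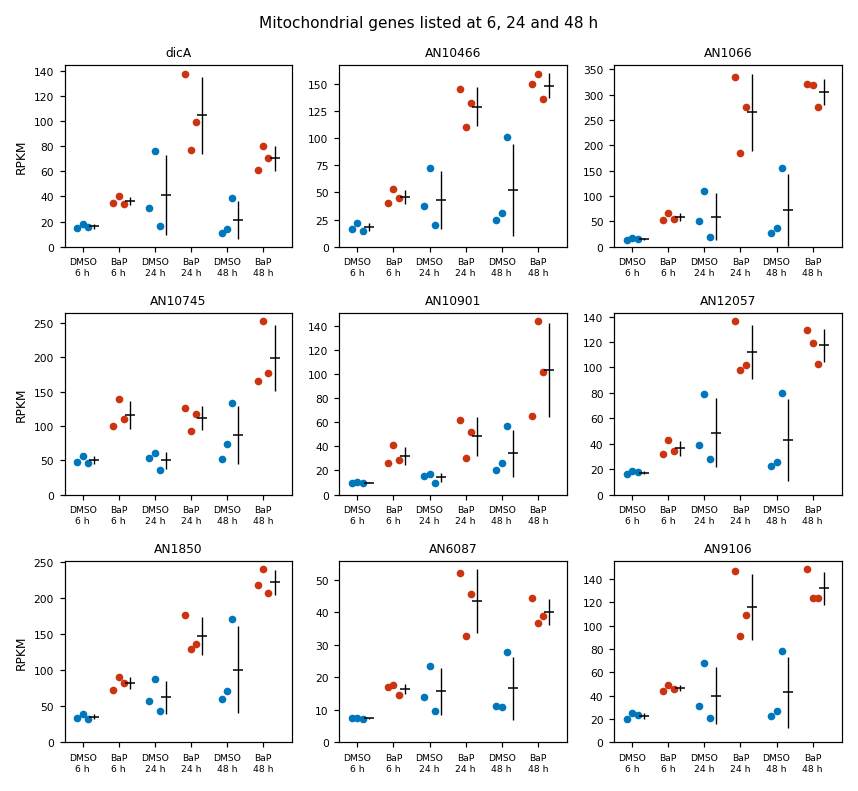
RPKM in each library (y axis) of the 9 mitochondrial genes listed at all 3 time points (x axis), for controls (blue) and BaP-treated cells (red), with the mean and SD of each group in black. Each panel shows higher values with BaP at every time, and the control spread widens at 24 and 48 h, as for AN1066 (12.6 to 17.7 at 6 h, 18.3 to 110.1 at 24 h, and 27.7 to 155 at 48 h).

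Among cofactor and iron genes 2 of 2 rose at 6 h and 2 of 4 at 24 h, and at 48 h 1 rose and 1 fell. Over all listed genes, 63.6%, 41.5%, and 40.9% rose at these times, and 43% fell at 48 h. AN7752, which codes for ferrochelatase, the enzyme that places iron in heme, was at 29.8, 41.2, and 34.7 RPKM with BaP and 12.5, 17.02, and 14.3 RPKM in the controls at 6 h (1.22 ± 0.17). At 24 h AN7752 read 83.5, 65.6, and 74.6 RPKM with BaP and 25.8, 42.01, and 16.6 RPKM in the controls (1.46 ± 0.35). No control reached the BaP libraries at either time. AN4781, a ligase of protein lipoylation, had means of 47.1 ± 2.90 RPKM with BaP and 16.4 ± 5.44 RPKM in the controls (SD, n = 3) at 6 h (1.51 ± 0.20). AN2508, a cysteine desulfurase that supplies sulfur to iron-sulfur clusters, had a difference of 0.997 ± 0.32 at 24 h, short of the threshold, and rose at 48 h, with means of 215 ± 22.6 RPKM with BaP and 98.9 ± 40.4 RPKM in the controls (SD, n = 3) (1.18 ± 0.34). AN8791, described by iron homeostasis, rose by 1.20 ± 0.48 at 24 h, with nearly equal BaP libraries and controls that spread from 16.6 to 70.8 RPKM. AN11040, described by coenzyme A synthesis, went the other way, with -0.98 ± 0.29 at 24 h, short of the threshold, and a fall at 48 h, where it was at 11.1, 7.81, and 10.02 RPKM with BaP and 30.2, 29.5, and 18.3 RPKM in the controls (-1.32 ± 0.32).

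Among enzymes of amino acid, pyruvate, and sulfur metabolism, the 1 gene listed at 6 h rose, 2 of the 3 listed at 24 h did, and 3 of the 4 listed at 48 h did. The shares of all listed genes that rose were 63.6%, 41.5%, and 40.9%. AN10901, glycine dehydrogenase of the glycine cleavage system, which feeds 1-carbon metabolism, was at 26.3, 40.9, and 28.997 RPKM with BaP and 9.57, 10.5, and 9.66 RPKM in the controls at 6 h (1.58 ± 0.18). At 24 h AN10901 measured 62.1, 30.6, and 52.02 RPKM with BaP and 15.7, 17.2, and 9.82 RPKM in the controls (1.67 ± 0.35). At 48 h AN10901 was at 65.5, 144, and 101 RPKM with BaP and 20.8, 25.9, and 56.8 RPKM in the controls (1.62 ± 0.41). The difference was of similar size at each time, while the mean level was higher at each later time in both treatments. AN1074, described by the same cleavage system and by lipoylation, had differences of 0.995 ± 0.31 at 24 h and 0.98 ± 0.34 at 48 h, both just short of the threshold. AN4039, a thiosulfate sulfurtransferase, was at 93.5, 73.99, and 78.5 RPKM with BaP and 37.3, 56.5, and 23.6 RPKM in the controls at 24 h (1.13 ± 0.34). At 48 h AN4039 measured 101, 92.9, and 94.2 RPKM with BaP and 30.6, 34.4, and 75.4 RPKM in the controls (1.14 ± 0.36). AN11009, described as a mitochondrial pyruvate carboxylase, the enzyme that makes oxaloacetate from pyruvate, had means of 10.3 ± 1.45 RPKM with BaP and 4.57 ± 0.916 RPKM in the controls (SD, n = 3) at 48 h (1.03 ± 0.30).

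Proteases and chaperones moved in different directions. AN1850, a metalloendopeptidase of the inner membrane that degrades misfolded proteins, rose at all 3 times, with 73.3, 90.3, and 82.3 RPKM with BaP and 34.5, 39.4, and 32.7 RPKM in the controls at 6 h (1.18 ± 0.16). At 24 h AN1850 stood at 177, 129.7, and 136 RPKM with BaP and 57.3, 87.8, and 43.1 RPKM in the controls (1.27 ± 0.32). At 48 h AN1850 stood at 218, 241, and 207 RPKM with BaP and 60.6, 71.4, and 171 RPKM in the controls (1.28 ± 0.38). The differences of AN1850 were close to each other, although D33 came near the BaP libraries. AN8780, a serine endopeptidase, fell at 24 h, with 7.11, 13.4, and 8.21 RPKM with BaP and 25.6, 27.7, and 38.2 RPKM in the controls (-1.60 ± 0.31, the largest fall of the set at that time). At 48 h AN8780 read 6.69, 6.17, and 7.78 RPKM with BaP and 17.9, 19.3, and 9.96 RPKM in the controls (-1.04 ± 0.33). AN0349, an ATPase of protein refolding in the matrix, had -0.97 ± 0.31 at 24 h, short of the threshold, and fell at 48 h, with 19.5, 14.1, and 12.04 RPKM with BaP and 41.9, 38.995, and 30.2 RPKM in the controls (-1.24 ± 0.31). D33, high for the genes that rose, was the lowest control for AN8780 and AN0349.

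The 3 fatty acid beta-oxidation genes were lower in BaP-treated cells. At 24 h 2 of 2 listed fell and at 48 h 3 of 3 listed fell, beside 32.6% and 43% of all listed genes, and none was listed at 6 h. They were set apart as a group after their values had been seen. The gene scdA, a putative acyl-CoA dehydrogenase for the first oxidation step on short-chain fatty acids, was at 8.59, 15.1, and 12.6 RPKM with BaP and 31.1, 21.03, and 31.7 RPKM in the controls at 24 h (-1.15 ± 0.30, adjusted p = 0.0158). At 48 h scdA was at 7.17, 10.6, and 10.8 RPKM with BaP and 43.2, 40.2, and 18.6 RPKM in the controls (-1.66 ± 0.36, adjusted p = 0.00213). D33 was again the odd control at 48 h, below the other controls. The gene echA, the enoyl-CoA hydratase of the next step, which also serves the breakdown of isoleucine and valine, was at 28.7, 43.5, and 33.2 RPKM with BaP and 72.5, 64.9, and 83.2 RPKM in the controls at 24 h (-1.06 ± 0.26, adjusted p = 0.0155). At 48 h echA measured 29.2, 25.9, and 20.9 RPKM with BaP and 90.5, 77.3, and 52.2 RPKM in the controls (-1.47 ± 0.32, adjusted p = 0.00212). At 48 h mthA, a putative ketoacyl-CoA thiolase that releases acetyl-CoA in the last step, was at 16.5, 14.8, and 12.6 RPKM with BaP and 53.6, 49.9, and 37.9 RPKM in the controls (-1.62 ± 0.30, adjusted p = 0.0014). For all 3 genes the lowest control at 48 h was D33, and it still lay above every BaP library.

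The largest fall of the set was that of hxkC, a hexokinase-like protein without catalytic activity that associates with mitochondria and takes part in the regulation of extracellular proteases under carbon starvation. At 48 h it was at 28.6, 62.2, and 29.9 RPKM with BaP and 147, 159, and 109.9 RPKM in the controls, a log2 fold change of -1.84 ± 0.36 (adjusted p = 0.00156). B29 stood above the other BaP libraries and still below the lowest control. The only member that fell at 6 h was AN0394, described by apoptosis and the response to singlet oxygen, at 2.81, 1.74, and 2.27 RPKM with BaP and 7.15, 4.93, and 6.06 RPKM in the controls (-1.11 ± 0.18), and its value was -0.986 without B17 and -0.997 without D19, both short of the threshold. At 24 h AN0394 had a difference of -0.94 ± 0.24 and did not pass. Its fewest reads in any library were 26 at 6 h and 22 at 24 h, and with a pseudocount of 0.1 in place of 1 its log2 fold change was -1.38 at 6 h and -1.22 at 24 h.

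**Figure D5:**
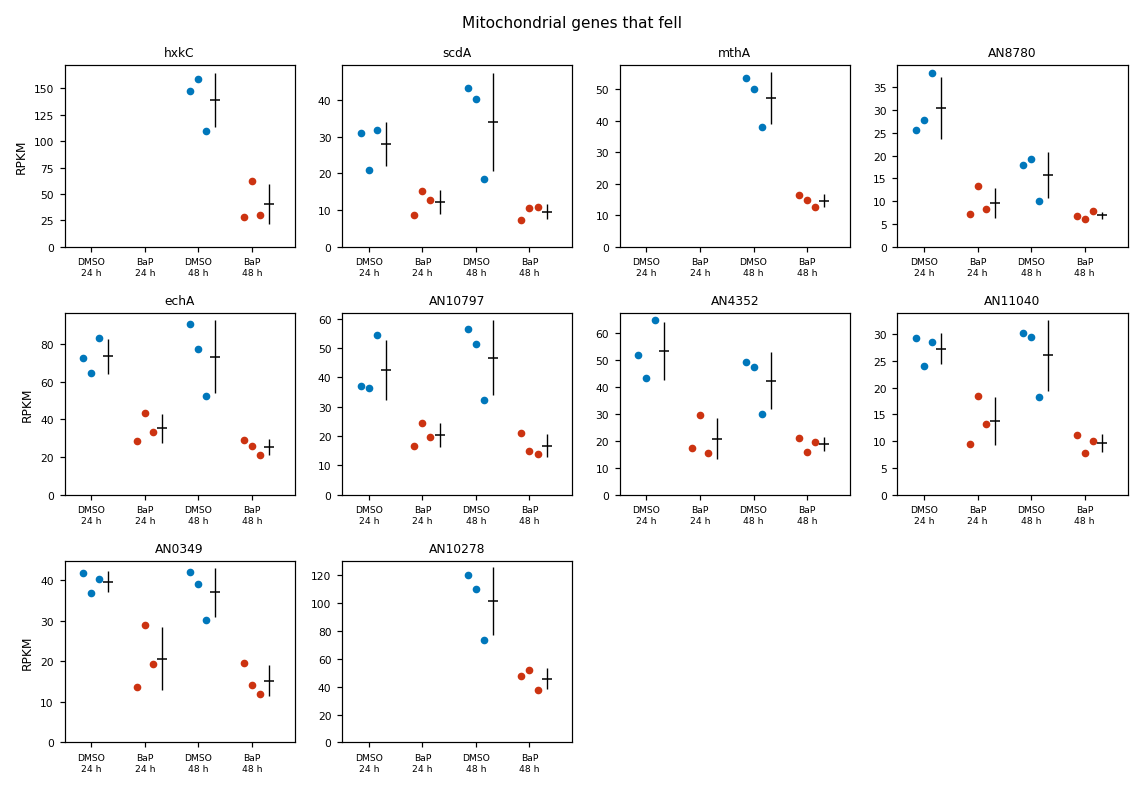
RPKM in each library (y axis) of the 10 mitochondrial genes that fell at 24 or 48 h (x axis), for controls (blue) and BaP-treated cells (red), with the mean and SD of each group in black; a time point is empty where the gene was not listed. All BaP libraries lie below all controls in each panel, as for hxkC at 48 h (28.6 to 62.2 against 109.9 to 159).

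Among genes with other described activities, AN9106, a putative triglyceride lipase, was listed at every time. At 6 h it was at 44.3, 49.3, and 45.98 RPKM with BaP and 20.2, 25.4, and 23.4 RPKM in the controls and did not pass, with 0.99 ± 0.16, a value that turned to -0.11 when the libraries were centred on the median of the listed genes. AN9106 rose at 24 h, with 147, 91.2, and 109 RPKM with BaP and 31.4, 67.9, and 21.05 RPKM in the controls (1.64 ± 0.44). At 48 h AN9106 stood at 148, 124, and 123 RPKM with BaP and 22.9, 27.3, and 78.2 RPKM in the controls (1.81 ± 0.41). AN4940 (ish1), described by meiotic recombination and by several membranes, had the highest level of the set at 6 h, with 1032, 1318, and 987 RPKM with BaP and 337, 372, and 393 RPKM in the controls (1.59 ± 0.17). No other member reached such a level in any library at 6, 24, or 48 h.

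AN4714, a dehydratase that closes a ring on a modified adenosine of tRNA, was at 47.8, 52.4, and 48.98 RPKM with BaP and 22.5, 24.2, and 21.1 RPKM in the controls at 6 h (1.10 ± 0.16). At 24 h AN4714 read 123, 101, and 103 RPKM with BaP and 46.8, 83.2, and 27.1 RPKM in the controls (1.18 ± 0.40). AN3412, described by ethanol metabolism in the inner membrane, was at 33.8, 25.01, and 37.04 RPKM with BaP and 12.9, 15.7, and 11.2 RPKM in the controls at 24 h (1.20 ± 0.26). At 48 h AN3412 was at 21.9, 32.2, and 29.6 RPKM with BaP and 7.74, 10.7, and 14.1 RPKM in the controls (1.30 ± 0.32). The differences of AN3412 at both times were within 1 standard error of each other. AN4309, described by N-terminal acetylation of proteins, was at 64.8, 40.6, and 52.9 RPKM with BaP and 21.01, 31.6, and 15.6 RPKM in the controls at 24 h (1.21 ± 0.33). At 48 h AN4309 measured 56.4, 66.9, and 49.99 RPKM with BaP and 20.5, 19.5, and 42.9 RPKM in the controls (1.12 ± 0.35). Each of these genes had its highest control in D26 or D33. AN1467 (ppmA), a serine/threonine phosphatase, was at 47.5, 37.7, and 59.1 RPKM with BaP and 24.7, 30.1, and 12.3 RPKM in the controls at 24 h (1.13 ± 0.37). At 48 h AN1467 stood at 50.1, 43.97, and 53.9 RPKM with BaP and 17.8, 20.3, and 31.7 RPKM in the controls (1.09 ± 0.32).

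Of the 26 genes described by location alone, 12 of 14 listed at 6 h rose, as did 16 of 21 at 24 h and 8 of 13 at 48 h. None fell at 6 h, 2 fell at 24 h, and 3 fell at 48 h. The shares of all listed genes were 63.6%, 41.5%, and 40.9% that rose and 10.4%, 32.6%, and 43% that fell. The largest rise of the set at 6 h was that of AN7524, at 57.8, 66.9, and 52.6 RPKM with BaP and 10.8, 13.3, and 11.1 RPKM in the controls (2.23 ± 0.16, adjusted p = 1.25e-08). At 24 h AN7524 was at 98.5, 82.7, and 98.6 RPKM with BaP and 29.99, 66.7, and 10.9 RPKM in the controls (1.68 ± 0.57). The mean with BaP was 59.1 RPKM at 6 h and 93.3 RPKM at 24 h, beside 11.8 and 35.9 RPKM in the controls, of which D26 was far the highest, and the 24-h difference was 2.29 without D26 and 1.04 without D27. AN4164, also placed in mitochondria, was at 91.8, 98.8, and 99.7 RPKM with BaP and 25.9, 38.3, and 33.9 RPKM in the controls at 6 h (1.55 ± 0.17). At 24 h AN4164 read 182, 132, and 151 RPKM with BaP and 47.7, 121, and 17.5 RPKM in the controls (1.69 ± 0.62; 2.36 without D26 and 1.003 without D27).

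AN8959 had the highest level of the set at 48 h. Its values were 277, 409, and 316 RPKM with BaP and 110.5, 129.7, and 139 RPKM in the controls at 6 h (1.38 ± 0.18). At 48 h AN8959 was at 928, 812, and 623 RPKM with BaP and 79.9, 91.9, and 456 RPKM in the controls (2.37 ± 0.53, adjusted p = 0.00231). D33 stood far above the other controls of 48 h, and the log2 fold change was 3.17 without it. AN3687, placed in the cytosol and nucleus as well, was at 292, 197, and 219.7 RPKM with BaP and 80.1, 141, and 53.6 RPKM in the controls at 24 h (1.45 ± 0.38). At 48 h AN3687 measured 311, 348, and 286 RPKM with BaP and 51.5, 64.04, and 173 RPKM in the controls (1.91 ± 0.41). AN3687 kept all BaP libraries above D26 and D33, the highest controls. AN12057, of the outer membrane, was at 31.7, 42.8, and 34.5 RPKM with BaP and 16.1, 18.4, and 17.5 RPKM in the controls at 6 h (1.02 ± 0.17, which turned to -0.079 when the libraries were centred on the median of the listed genes). At 24 h AN12057 read 136, 98.02, and 102 RPKM with BaP and 39.3, 79.3, and 27.7 RPKM in the controls (1.30 ± 0.40). At 48 h AN12057 stood at 129, 119, and 103 RPKM with BaP and 22.9, 25.7, and 80.1 RPKM in the controls (1.66 ± 0.42). The BaP libraries of AN12057 stayed above every control at each time. AN10745 was at 99.6, 139, and 110.5 RPKM with BaP and 47.9, 56.5, and 46.2 RPKM in the controls at 6 h (1.19 ± 0.17). At 24 h AN10745 was at 127, 92.8, and 117 RPKM with BaP and 53.1, 60.9, and 35.7 RPKM in the controls (1.17 ± 0.29). At 48 h AN10745 read 165, 253, and 177 RPKM with BaP and 52.6, 73.3, and 134 RPKM in the controls (1.27 ± 0.37). The difference of AN10745 was nearly the same at the 3 times.

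AN4548 and AN4549 are transcribed away from each other with 181 bases between them and no annotated gene in that gap. AN4548 was at 28.005, 32.05, and 29.2 RPKM with BaP and 6.10, 12.1, and 5.94 RPKM in the controls at 6 h (1.83 ± 0.21). At 24 h AN4548 was at 47.3, 51.7, and 48.97 RPKM with BaP and 17.1, 43.1, and 8.84 RPKM in the controls (1.34 ± 0.51). AN4549 was at 20.6, 21.6, and 24.7 RPKM with BaP and 9.18, 11.5, and 8.53 RPKM in the controls at 6 h (1.12 ± 0.17). At 24 h AN4549 measured 51.1, 45.6, and 41.7 RPKM with BaP and 16.2, 35.1, and 8.41 RPKM in the controls (1.38 ± 0.47). Both genes were listed at 6 and 24 h, rose at each, and had D26 as their highest control of 24 h.

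AN0952 was at 76.9, 105, and 85.1 RPKM with BaP and 29.97, 34.7, and 27.4 RPKM in the controls at 6 h (1.502 ± 0.17). At 24 h AN0952 stood at 183, 143, and 166 RPKM with BaP and 54.1, 105, and 30.9 RPKM in the controls (1.53 ± 0.43). AN12169 was at 83.02, 103, and 90.8 RPKM with BaP and 29.6, 40.2, and 32.2 RPKM in the controls at 6 h (1.42 ± 0.17). At 24 h AN12169 read 352, 260.1, and 267 RPKM with BaP and 107, 201, and 43.6 RPKM in the controls (1.56 ± 0.52). Their group means were higher at 24 h than at 6 h in both treatments, and D26 again came nearest to the BaP libraries. AN0325 was at 89.6, 56.04, and 62.4 RPKM with BaP and 20.3, 35.3, and 17.1 RPKM in the controls at 24 h (1.52 ± 0.34). At 48 h AN0325 was at 70.3, 67.95, and 64.5 RPKM with BaP and 16.8, 18.8, and 35.97 RPKM in the controls (1.54 ± 0.34). AN0325 had nearly the same difference at both times. AN8257 was at 21.9, 26.5, and 30.1 RPKM with BaP and 13.1, 12.97, and 7.04 RPKM in the controls at 24 h (1.21 ± 0.30). At 48 h AN8257 measured 25.9, 29.5, and 21.1 RPKM with BaP and 8.01, 9.14, and 17.6 RPKM in the controls (1.14 ± 0.34). AN8257 was the only rising gene whose highest control at 24 h was D25. AN2173 was at 75.6, 44.7, and 62.9 RPKM with BaP and 27.7, 35.3, and 23.8 RPKM in the controls at 24 h (1.04 ± 0.29). At 48 h AN2173 stood at 63.3, 64.7, and 63.1 RPKM with BaP and 26.7, 23.1, and 42.99 RPKM in the controls (1.07 ± 0.32). AN2173 had nearly equal BaP libraries at 48 h and a low B23 at 24 h. AN1393 was at 108, 49.5, and 92.8 RPKM with BaP and 33.6, 41.1, and 40.4 RPKM in the controls at 24 h (1.03 ± 0.33). At 48 h AN1393 read 63.6, 76.8, and 94.4 RPKM with BaP and 36.9, 29.8, and 35.8 RPKM in the controls (1.16 ± 0.30). The controls of AN1393 were close together at both times, D33 included.

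Location-only genes that rose at 1 time were AN6996 (1.55 ± 0.22), AN9401 (1.45 ± 0.17), and AN0303 (1.31 ± 0.17) at 6 h, and AN4216 (1.02 ± 0.36), AN3663 (1.13 ± 0.35), and AN4162 (1.04 ± 0.42) at 24 h. AN0303 had 0.99 ± 0.38 at 24 h, AN3663 0.92 ± 0.34 at 48 h, and AN4162 0.97 ± 0.16 at 6 h, none past the threshold, and the last of these turned to -0.13 when the libraries were centred on the median of the listed genes. AN4708 was listed at 48 h with 0.87 ± 0.31 and did not pass.

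AN4352, AN10797, and AN10278 were the location-only genes that fell. AN4352, placed in mitochondria and the plasma membrane, was at 17.2, 29.5, and 15.5 RPKM with BaP and 51.7, 43.2, and 64.8 RPKM in the controls at 24 h (-1.36 ± 0.32). At 48 h AN4352 was at 21.1, 15.99, and 19.5 RPKM with BaP and 49.2, 47.4, and 30.1 RPKM in the controls (-1.10 ± 0.32). B23 was the highest BaP library of AN4352 at 24 h, the reverse of its place for genes that rose. AN10797 was at 16.5, 24.5, and 19.6 RPKM with BaP and 36.97, 36.3, and 54.2 RPKM in the controls at 24 h (-1.03 ± 0.28). At 48 h AN10797 measured 21.1, 14.8, and 13.9 RPKM with BaP and 56.4, 51.5, and 32.1 RPKM in the controls (-1.42 ± 0.33). At 48 h AN10278, placed also in the cytosol and nucleus, was at 48.04, 52.3, and 37.3 RPKM with BaP and 120.2, 110.1, and 73.9 RPKM in the controls (-1.11 ± 0.32). The 3 genes had their lowest 48-h control in D33. Lower members with few reads did not pass: AN4974 had -0.80 ± 0.30 at 24 h, and AN5175, of the outer membrane, had -0.88 ± 0.18 at 6 h and -0.94 ± 0.27 at 24 h, with as few as 19 reads in a library at 24 h.

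Mean levels of the members with a positive fold change were also higher at later times for most genes in both treatments. Between 24 and 48 h, however, the middle control library was lower at 48 h for most of these genes. For the 20 genes with a positive fold change listed at 6 and 24 h, the 24-h mean was higher than the 6-h mean for 19 in BaP-treated cells and for 19 in controls, and the median ratio of the means was 2.04 with BaP and 2.12 in the controls. Between 24 and 48 h the median ratio for 29 such genes was 1.14 with BaP and 1.18 in the controls. The 7 genes with a negative fold change listed at 24 and 48 h had a median ratio of 0.74 with BaP and 0.95 in the controls, and their BaP mean was higher at 48 h for 0 of 7. These are levels set side by side from separately made tables. The control means held D26 at 24 h and D33 at 48 h, the highest controls for most genes with a positive fold change. The middle control library of AN1066 read 50.3 RPKM at 24 h and 36.6 RPKM at 48 h, beside means of 59.6 and 72.9 RPKM. That of AN10745 went the other way, reading 53.1 and 73.3 RPKM, beside means of 49.9 and 86.6 RPKM. The part of single libraries in these ratios was not tested, and the ratios over all listed genes were not worked out.

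Words for energy metabolism, such as NADH, malate, and oxoglutarate, were found in the descriptions of 24 listed genes outside the set. Of these, 6 of 8 rose and 1 fell at 6 h, 6 of 11 rose and 3 fell at 24 h, and 7 of 15 rose and 7 fell at 48 h. All listed genes rose in 63.6%, 41.5%, and 40.9% of cases and fell in 10.4%, 32.6%, and 43%, and nothing particular to the word list is read from its counts. The words also caught genes of other functions, among them AN10026 (-2.64 at 48 h), AN4070 (-1.08), and AN7893 (1.89), oxidoreductases that use 2-oxoglutarate as a donor, and jenA (-1.33), a carboxylic acid transporter. Genes described by energy enzymes fell as well. Among these were AN10973, a putative citrate synthase (-1.09 at 6 h), AN5440, a putative cytochrome c peroxidase (-2.08 at 24 h and -2.22 at 48 h), and the methylcitrate synthase mcsA (-1.08 at 48 h). Falls were also found for AN5669, a putative succinyl-CoA:3-ketoacid-coenzyme A transferase (-1.62 at 48 h), and AN10700, described by oxaloacetate decarboxylase activity (-1.12 at 24 h and -1.22 at 48 h). AN5300, a putative aconitate hydratase, had -0.94 at 24 h and did not pass. Among the genes left out of the set by its rule, cytochrome c (cycA), the mobile electron carrier between complexes III and IV, had log2 fold changes of 1.71 at 24 h and 1.51 at 48 h. Citrate synthase (citA), the entry enzyme of the TCA cycle and also left out by the rule, had 1.42 and 1.88.

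Markers of conidia, the asexual spores, were examined beside the set. Of 10 marker genes looked for, 6 were listed at 6 h, of which catA, rodA, yA, conF, and conJ rose, beside the 63.6% of all listed genes that rose at that time. The conidiation regulator abaA was lower with BaP without passing, at -0.65 ± 0.18 (adjusted p = 0.00269). Another 4 were in no table, so that their levels are not known here. The summed RPKM of the 6 was 941 to 1395 in the BaP libraries and 399 to 468 in the controls at 6 h. At 48 h conF and yA were listed, of which conF rose (1.95 ± 0.50) and yA did not pass (0.94 ± 0.32), and their sum was 430.5 to 676 RPKM with BaP and 82.7 to 367 RPKM in the controls. No marker was listed at 24 h. The part of conidiation in the 6-h and 48-h values of the mitochondrial genes was not tested.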

How the data were processed

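The 3 deposited tables, one per time point, hold RPKM values that the authors computed per library for genes they had selected as different between BaP and DMSO, with 3 libraries per group (18 in all). The unit was inferred from the values, which become whole reads (within 0.08 of a read) for 99.0%, 99.5%, and 99.5% of the listed genes at 6, 24, and 48 h once a length and a library size are set. The submitters' processing notes name FastQC, Subread, featureCounts, limma, and Cufflinks; the genome build, annotation release, and settings are not given in the sources used here. The tables also hold the authors' own mean expression, fold changes, and p-values, which were not used. The 3 untreated samples at 0 h were not analysed here.

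From the RPKM values, log2(RPKM + 1) was fitted per time point over all listed genes with limma 3.58.1 (R 4.3.3), BaP against DMSO, without a covariate, and p-values were adjusted by the Benjamini-Hochberg method; the threshold was an adjusted p under 0.05 with a log2 fold change over 1 or under -1. The fit was tested on simulated data. Tables were read with Python 3.11.15 and pandas 2.3.3. Alternatives were pseudocounts of 0.1 and 0.01, a mean RPKM of at least 1, an adjusted p under 0.01, no fold change limit, a mean-variance trend, median-centred libraries, voom on recovered reads, and leaving out each library.

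Values in every library are given for members past the threshold at 2 or 3 time points, for the 5 largest rises and falls per time point, and for every member that fell; every other member is named with its fold change. Roles were assigned by hand from the descriptions. The members, role groups, and lists were chosen with earlier results of these data known. Of the 69 members, 66 matched the RefSeq gene table (ASM1142v1), which was used for symbols and for the genes between neighbours. No promoter sequences were used.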

Additional observations from a re-analysis of the deposited data

How the results depend on the processing

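At 6 h the count of members that passed was 3 (1 up, 2 down) with median-centred libraries, which also turned the sign of AN12057 (-0.079), AN4162 (-0.13), AN6087 (-0.053), and AN9106 (-0.11). The median was taken over genes selected as different, 76.1% of which had a positive fold change at 6 h. Centring on it took their shared rise from every gene and moved the median of all listed genes from 1.13 to 0.04. The cause of that shared rise was not tested. The number that fell at 6 h was 2 in place of 1 with a pseudocount of 0.1 or 0.01, with voom, and with no fold change limit. At 24 h, 9 fell with a pseudocount of 0.1, and 10 with 0.01, with voom, or with no fold change limit, in place of 5. With an adjusted p under 0.01 limma passed 0 members at 24 h (0 up, 0 down), where the smallest adjusted p was 0.0155. An unadjusted limma p under 0.05 was found for all 55, and for 1406 of the 1503 listed genes, which had been selected as different on these libraries. Leaving out each library in turn gave 22 to 27 members at 6 h (22 to 26 up, 0 to 2 down), 0 to 52 at 24 h (0 to 43 up, 0 to 9 down), and 24 to 43 at 48 h (17 to 33 up, 7 to 10 down). In these fits the remaining 2 libraries of a group shared the estimate of spread with the other group. Over all listed genes at 6 h, 520 passed (447 up, 73 down), against 202 (34 up, 168 down) with median-centred libraries; the 73 that fell became 142 and 161 with pseudocounts of 0.1 and 0.01 and 156 with voom. At 24 h the 490 that fell became 750 with a pseudocount of 0.01 and 743 with voom, and 1 of 1503 genes passed without B22, without B24, or without D25. The other alternatives changed no count of members by more than 1.5 times. No paired analysis was possible because the columns of the tables carry library numbers and not the replicate numbers of the sample labels. No test of promoter motifs was made.

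The tables hold only genes that had been selected on these libraries, so the levels of other mitochondrial genes are not known here, and the calls are no independent evidence of a response. The lowest read numbers were those of AN0394, AN4974, and AN5175, and 12 of 128 combinations of gene and time point had a library with fewer than 100 reads.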

Other observations

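Genes for the mitochondrial ribosome, which makes the few proteins encoded in the organelle, were kept out of the set above. Of 17 listed genes found by words for ribosomes in mitochondrial descriptions, 0 were listed at 6 h. At 24 h 10 of 12 rose, 0 fell, and 2 did not pass, beside 41.5% of all listed genes that rose and 32.6% that fell. At 48 h 10 of 15 rose, 2 fell, and 3 did not pass, beside 40.9% and 43%. The words also caught genes of other functions, among them AN0889 (1.36 and 1.49), described by cytoplasmic translation, and AN10296 (-0.37 at 24 h, not past the threshold), described by fumarate reductase activity. The putative ribosomal protein L16 gene mrpA had log2 fold changes of 1.60 at 24 h and 2.06 at 48 h on the log2(RPKM + 1) scale. AN10161, of the small subunit, had 1.60 and 1.55, and lies 153 bases from AN1074 of the glycine cleavage system. AN4308, of the large subunit, had 1.13 and 1.02, and lies 316 bases from AN4309. The members that fell at 48 h were AN6297 (-1.48), described by copper binding, aerobic respiration, and several locations that include the mitochondrial ribosome, and AN3459 (-1.09), described by glutathione breakdown with the ribosome among its locations.

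Of the 11 other mitochondrial genes left out by the rule, 2 of 2 listed rose at 6 h, 9 of 10 rose and 1 fell at 24 h, and 6 of 9 rose and 2 fell at 48 h, with medians of 1.94, 1.32, and 1.27. Of all listed genes, 63.6%, 41.5%, and 40.9% rose and 10.4%, 32.6%, and 43% fell, with medians of 1.13, -0.19, and -0.56. The genes named next were chosen after their values were seen. AN10782, a putative phosphate carrier, had log2 fold changes of 1.97 at 6 h, 2.67 at 24 h, and 2.74 at 48 h. AN10634 (yme2), described by maintenance of the mitochondrial genome, had 1.91 at 6 h and 1.81 at 24 h. AN6510 (tom40), the pore of the outer membrane translocase, had 1.20 at 24 h and 1.27 at 48 h, and AN11136, of inner membrane import, had 1.37 and 1.40. AN9010, described by nicotinamide mononucleotide transport, fell, with -1.65 at 24 h and -1.80 at 48 h, and AN6522, a putative GTPase, fell at 48 h, with -1.17.

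Among genes with energy words whose descriptions do not name mitochondria, maeB, a putative malate dehydrogenase that yields pyruvate, and ndeA, a putative NADH dehydrogenase, rose at all 3 times, with 1.97, 1.84, and 2.28 for maeB and 2.29, 2.35, and 2.49 for ndeA. Both were named after their values were seen. Of the 24 genes with energy words outside the set, 15 were listed at 48 h, of which 7 rose and 7 fell, with a median of -0.996.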
